A study of Mus musculus with 16 samples.

Results

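Nanog, Esrrb, Tfcp2l1, Tbx3, Nr5a2, Prdm14, Zfp42 and Tcl1, a set of 8 genes of the naive pluripotency network, were followed in mouse embryonic stem (ES) cells that left the naive state. They were picked by symbol from a count table of 27179 genes, and all 8 had counts in each of the 16 libraries and passed the filter on low counts, which kept 14288 genes. The series profiled poly(A) RNA from 8 groups of 2 libraries, made up of 2 maintenance media and 4 collection times. Its title concerns amino acid intake in pluripotent cell states, and the design implies 3 questions for these genes, namely how fast each was lost, in which order, and whether the medium before release made a difference.

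All cells had been grown on gelatin in serum with leukaemia inhibitory factor (LIF), a cytokine that activates STAT3, and were then adapted to their maintenance medium. The groups named 2i/LIF were kept without serum, in N-2 and B-27 supplements with LIF and 2i, a pair of inhibitors. These were 3 µM CHIR99021, which inhibits GSK3 and so stabilises beta-catenin, and 1 µM PD0325901, an inhibitor of MEK that shuts off ERK signalling. The groups named serum/LIF+2i were kept in 10% fetal bovine serum with LIF and the same 2i. At 0 h the cells were still in these media. For 12, 24 or 40 h of release, 2i/LIF cells stayed in their own base medium without 2i and LIF. Cells from serum/LIF+2i were moved to a serum-free mix of glutamine-free DMEM and Neurobasal with N-2, B-27 and 2 mM glutamine. A glutamine level of 2 mM is recorded for all 8 groups. Differences between the media after 0 h therefore cannot be told apart from differences between the release media. The protocol text gives 24 and 40 h for cells from serum, whereas the sample titles also give 12 h, and the titles were followed. The labels name neither the ES cell line nor separate cultures behind the replicates, so the p-values below measure only the spread between these libraries, which may be technical.

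Naive ES cells resemble the epiblast of the blastocyst before implantation, and a network of transcription factors that bind each other's regulatory regions holds them there. LIF, Wnt and the block of ERK feed into this network through different members: Tfcp2l1 and Tbx3 are known to respond to LIF, Esrrb is held down by the repressor Tcf7l1 until GSK3 is inhibited, and Nanog is restrained by ERK. When the inhibitors and LIF are removed, the naive factors are switched off while the core factors Oct4 and Sox2 persist for longer, and the cells pass through a formative state before lineage commitment. Tcl1, unlike the others, does not bind DNA but is a co-activator of the kinase Akt that lies downstream of this network in ES cells.

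Promoters of 3 of these genes are shown because they were the earliest lost (Tfcp2l1), the latest lost (Zfp42) and the one whose change over 24 h differed most between the media (Nanog). Each line gives the 250 bases before a RefSeq start site in GRCm38.p6, 5′ to 3′ on the strand of the gene. The position of Tfcp2l1 is chr1:118627695-118627944 (plus strand), that of Nanog is chr6:122707239-122707488 (plus strand) and that of Zfp42 is chr8:43307010-43307259 (minus strand). Capitals mark matches to motifs searched on both strands.
Tfcp2l1: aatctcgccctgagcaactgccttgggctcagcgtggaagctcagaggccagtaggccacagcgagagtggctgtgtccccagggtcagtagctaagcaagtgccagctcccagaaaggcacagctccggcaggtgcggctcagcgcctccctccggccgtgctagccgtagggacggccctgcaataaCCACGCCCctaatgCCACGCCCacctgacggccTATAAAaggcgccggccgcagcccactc
Nanog: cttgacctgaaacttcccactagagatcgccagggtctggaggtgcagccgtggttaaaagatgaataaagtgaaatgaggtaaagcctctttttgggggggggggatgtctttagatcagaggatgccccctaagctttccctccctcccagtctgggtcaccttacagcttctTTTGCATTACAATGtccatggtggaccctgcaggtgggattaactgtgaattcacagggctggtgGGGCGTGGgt
Zfp42: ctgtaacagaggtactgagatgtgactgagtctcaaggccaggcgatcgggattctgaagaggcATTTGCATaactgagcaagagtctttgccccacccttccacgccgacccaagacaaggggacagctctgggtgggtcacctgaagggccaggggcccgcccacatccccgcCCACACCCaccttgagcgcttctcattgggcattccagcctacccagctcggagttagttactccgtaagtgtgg

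In the Tfcp2l1 promoter the capitals are a pair of KLF matches (CCACNCCC), which begin 61 and 47 bases before the start site, and a TATA box match (TATAAA) 28 bases before it. In the Nanog promoter they are a composite of a SOX2 and an OCT4 site (CATTGT, any base, then ATGCAAA), read on the opposite strand 75 bases before the start site, and a KLF match 10 bases before it. In the Zfp42 promoter they are an OCT4 octamer (ATGCAAAT) on the opposite strand, 186 bases before the start site, and a KLF match 75 bases before it. RefSeq windows of 300 bases, which add the 50 bases after the start site, were at hand for 6 of the 8 genes, namely Nanog, Esrrb, Tfcp2l1, Nr5a2, Zfp42 and Tcl1. Over all 32851 such windows, 17.6% held the KLF letters, 13.6% the TATA box, 1.74% the octamer and 0.00609% the composite, which was found in 2 windows, both of Nanog. These 2 windows overlap and hold the same composite site. The STAT3 letters TTCNNNGAA, in 8.30% of windows, were found in Esrrb only, 178 bases before a start site, and KLF and TATA box letters were also found in Nr5a2. The letters CAAGGTCA of the ESRRB and NR5A2 site (1.56% of windows), of paired TFCP2L1 sites (CCAG, 6 bases of any kind, CCAG, 3.44%) and ATCAAAG of TCF factors (3.73%) were in none of the windows of these 6 genes. The octamer and the composite share the letters ATGCAAA, all letters were chosen after the sequences had been seen, and a match is a description of the sequence and not evidence of binding.

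Libraries held 5931381 to 11142744 counts, ribosomal RNA genes took 0.468 to 1.77% of them, and replicates correlated across genes with r of 0.9905 to 0.9948 on the log2 scale. Replicates differed by more than sampling noise in every group (chi-square per degree of freedom 1.35 to 2.88). The summed level of 5 ES cell markers (Pou5f1, Sox2, Sall4, Utf1, Lin28a) was 1399 to 1615 counts scaled to library size (CPM) at 0 h and 2184 to 2846 CPM later. These markers moved in opposite directions, so the sum does not show a rise of the whole list. Their median log2 change at 40 h was -0.013 in 2i/LIF (from -1.34 to 4.33) and -0.065 in serum/LIF+2i (from -1.48 to 2.99). Of 6 marker lists for other cells, primitive endoderm (6 genes) stayed at 2.34 to 7.36 CPM and fibroblasts (6 genes) at 6.11 to 17.8 CPM, with Sox7, Foxa2, Col1a2 and Col3a1 at 0 counts in 1 or 2 groups. The 6 trophoblast markers went from 71.1 to 83.4 CPM at 0 h to 5.84 to 9.39 CPM at 40 h, with Elf5 at 0 counts in 5 groups, and the 5 mesoderm and endoderm markers went from 16.7 to 35.2 CPM to at most 2.42 CPM, with Gsc and Mesp1 at 0 counts in 4 groups each. The 4 neural markers went from 29.2 to 47.9 CPM at 0 h to 93.8 to 127.5 CPM at 40 h. The 6 markers of two-cell-like cells went from 3.49 to 6.55 CPM (0 h) to 14.9 to 23.9 CPM (40 h) in the 2i/LIF groups. Those of the serum/LIF+2i groups went from 0.734 to 1.03 CPM to 37.2 to 38.2 CPM, and Zscan4c and Tcstv1 were at 0 counts at 0 h. The part of these cells in the loss of the naive factors was not tested. In bulk RNA, fewer cells that express a gene and less of its RNA per cell cannot be told apart.

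Levels of different genes were compared per length, as TPM, in which counts are divided by gene length and then scaled to the same sum in each library. At 0 h in 2i/LIF the order was Nanog with 1091 TPM, Tfcp2l1 with 524 TPM, Esrrb with 441 TPM and Zfp42 with 413 TPM, followed by Tcl1 with 111, Tbx3 with 83.0, Prdm14 with 79.9 and Nr5a2 with 65.6 TPM. In serum/LIF+2i Zfp42 stood second with 536 TPM after Nanog with 1316 TPM, and the last 4 genes kept their order. No neighbours in these orders had overlapping libraries at 0 h. Among the genes detected, between 81.3% (Nr5a2) and 99.6% (Nanog) lay below these genes in 2i/LIF. By 40 h Zfp42 had become the highest of the 8 in both media, at 61.4 TPM (2i/LIF) and 59.6 TPM (serum/LIF+2i), ahead of Nanog at 47.8 and 28.0 TPM, and Prdm14 was the lowest at 0.525 and 0.351 TPM. At that time the libraries of Tcl1 and Nr5a2 overlapped in both media, and those of Tcl1 and Tbx3 in serum/LIF+2i.

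Counted at an adjusted p under 0.05 (edgeR quasi-likelihood F test, two-sided, Benjamini-Hochberg over 14288 genes), 6 of the 8 genes were lower at 12 h than at 0 h in 2i/LIF, where 23.7% of all genes were lower, and 1 was higher, against 21.0% of all genes. Also at 12 h, 6 were lower in serum/LIF+2i, against 25.9% of all genes. All 8 were lower at 24 h, in 2i/LIF against a background of 29.6% and in serum/LIF+2i against 32.0%. All 8 were also lower at 40 h, against 34.7% and 35.3%. Their median log2 fold changes at 12, 24 and 40 h were -0.51, -2.06 and -5.14 for 2i/LIF and -0.565, -3.09 and -5.77 for serum/LIF+2i, while the median over all genes lay between -0.004 and 0.010. Each step was called too: all 8 fell from 12 to 24 h (17.7% of all genes for 2i/LIF, 24.2% for serum/LIF+2i) and from 24 to 40 h (24.5% and 24.6%). The comparisons of 12, 24 and 40 h within a medium share their 0 h libraries. The 8 genes were chosen with earlier results of these data known, so these counts are not an independent test.

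**Figure D1:**
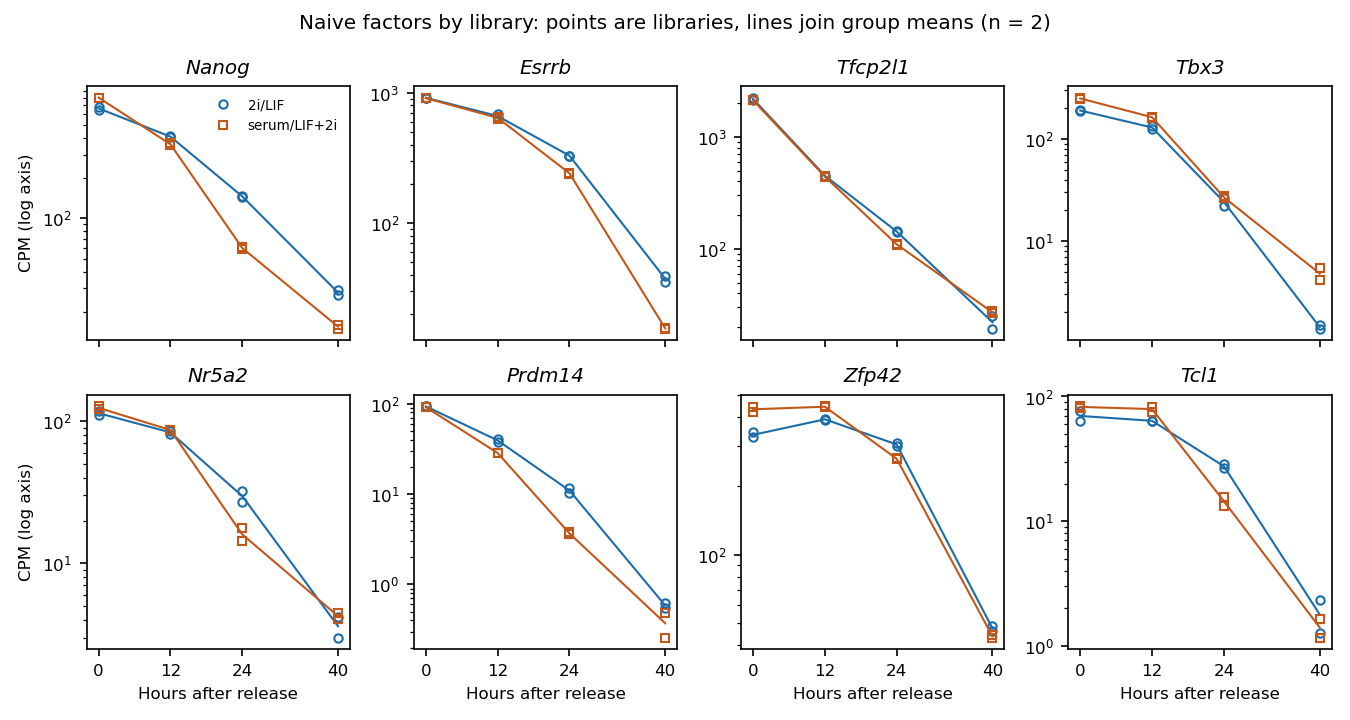
Level of each gene in CPM (log axis, with its own range for each gene) against hours after release. Points are single libraries, lines join the means of 2 libraries, circles are 2i/LIF and squares serum/LIF+2i. Tfcp2l1 drops steeply within 12 h, whereas Zfp42 and Tcl1 are still near their 0 h level at 12 h.

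Nanog, the homeodomain factor that lets ES cells self-renew without LIF when overexpressed, read 650.2 and 679.7 CPM in the 2i/LIF libraries at 0 h, 411.9 and 405.9 at 12 h, 148.0 and 143.9 at 24 h and 29.1 and 26.6 at 40 h. The serum/LIF+2i libraries read 801.6 and 800.3, then 352.4 and 364.8, then 61.3 and 58.7, and 14.9 and 16.1 CPM. Each time point lay below the one before it without overlap, and the serum/LIF+2i libraries were above those of 2i/LIF at 0 h and below them at every later time. Of its 0 h level Nanog kept 61.5% ± 0.645 (SD, n = 2) at 12 h in 2i/LIF, against 44.8% ± 1.10 for serum/LIF+2i. The log2 change over 12 h was -0.70 ± 0.04 (SE) for 2i/LIF and -1.16 ± 0.04 for serum/LIF+2i (edgeR adjusted p 8.0e-35 and 7.9e-56). At 24 h 21.9% ± 0.434 and 7.49% ± 0.228 remained.

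Tfcp2l1 encodes a CP2-family factor that acts downstream of LIF and STAT3. Its libraries in 2i/LIF were at 2242 and 2123 CPM at 0 h, 451.1 and 448.3 CPM at 12 h, 143.7 and 141.8 CPM at 24 h and 19.3 and 24.9 CPM at 40 h. Libraries from serum/LIF+2i were at 2130 and 2116, 437.1 and 446.1, 107.7 and 111.5, and 26.5 and 27.7 CPM. No times overlapped within a medium, and the media overlapped at 0 h and were close at 12 h, where serum/LIF+2i was lower. After 12 h 20.6% ± 0.0933 of the 0 h level was left for 2i/LIF and 20.8% ± 0.301 for serum/LIF+2i. The 0 h libraries had an SD of 3.87% and 0.441% of their mean, which these values leave out. The log2 change over 12 h was -2.28 ± 0.04 and -2.26 ± 0.04 (edgeR adjusted p 3.0e-84 and 6.3e-85). Of the 14288 genes tested, 308 for 2i/LIF and 282 for serum/LIF+2i had a more negative value at 12 h, and the next of the 8 genes, Prdm14, had 787 and 482 genes below it.

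Esrrb is an orphan nuclear receptor that can stand in for Nanog in self-renewal. It read 912.3 and 919.0 CPM at 0 h in 2i/LIF, 643.8 and 682.6 at 12 h, 328.1 and 329.6 at 24 h and 39.6 and 35.2 at 40 h. From serum/LIF+2i it read 915.4 and 904.0, then 631.2 and 654.0, then 242.3 and 239.4, and 15.4 and 15.7 CPM. The media overlapped at 0 and 12 h and were apart at 24 and 40 h, with serum/LIF+2i lower. Esrrb fell slowly at first, keeping 72.4% ± 3.00 and 70.6% ± 1.78 at 12 h, and most of its log2 change, 68.0% for 2i/LIF and 67.3% for serum/LIF+2i, came between 24 and 40 h. That step was -3.13 ± 0.05 (SE) for 2i/LIF and -3.95 ± 0.06 for serum/LIF+2i (edgeR adjusted p 2.4e-85 and 2.7e-92).

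Nr5a2, a nuclear receptor that can replace Oct4 in reprogramming, stood at 110.0 and 117.7 CPM at 0 h in 2i/LIF, 85.5 and 81.2 at 12 h, 32.2 and 27.2 at 24 h and 3.01 and 4.21 at 40 h. Its serum/LIF+2i libraries stood at 120.9 and 127.3, 86.4 and 86.9, 17.6 and 14.4, and 4.05 and 4.45 CPM. The media overlapped at 40 h, and at 24 h the serum/LIF+2i libraries were the lower ones. Between 12 and 24 h it changed by -1.48 ± 0.09 (SE) for 2i/LIF and -2.44 ± 0.09 for serum/LIF+2i on the log2 scale. Between 24 and 40 h the order was the other way round, with -3.05 ± 0.17 and -1.90 ± 0.16, and all 4 steps were called (largest edgeR adjusted p 2.9e-20).

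Tbx3, a T-box factor that helps ES cells self-renew and favours extraembryonic endoderm when raised, read 186.5 and 193.1 CPM at 0 h in 2i/LIF, 125.8 and 132.9 at 12 h, 21.9 and 26.3 at 24 h and 1.38 and 1.49 at 40 h. Cells from serum/LIF+2i had 254.2 and 244.5, then 161.1 and 165.1, then 27.3 and 26.3, and 5.43 and 4.16 CPM. The serum/LIF+2i libraries were higher at 0, 12 and 40 h, and at 24 h the lower of them stood at the level of the higher 2i/LIF library. At 40 h 0.757% ± 0.0436 remained in 2i/LIF, from 22 counts over both libraries (95% Poisson interval 13.8 to 33.3), and 1.92% ± 0.360 in serum/LIF+2i, from 106 counts. The step from 12 to 24 h, with a log2 change of -2.43 ± 0.08 (SE) for 2i/LIF and -2.61 ± 0.07 for serum/LIF+2i, was the largest of the 8 genes in 2i/LIF (edgeR adjusted p 4.6e-55 and 1.1e-65).

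Prdm14, a PR-domain repressor that keeps the FGF receptor and the de novo DNA methyltransferases low, read 93.4 and 93.0 CPM at 0 h in 2i/LIF, 40.8 and 37.4 at 12 h, 10.1 and 11.7 at 24 h and 0.626 and 0.543 at 40 h. Starting from serum/LIF+2i it read 91.7 and 90.9, then 28.3 and 28.5, then 3.76 and 3.57, and 0.258 and 0.484 CPM. The libraries of serum/LIF+2i were below those of 2i/LIF at all 4 times, by 1.02-fold in the fit at 0 h and by 2.97-fold at 24 h. Only the differences at 12 and 24 h were called (edgeR adjusted p 0.798 at 0 h and 0.507 at 40 h). It was the second fastest of the 8 genes, with 42.0% ± 2.58 and 31.1% ± 0.218 left at 12 h. At 40 h the counts were 5 and 4 in 2i/LIF, 9 in all (95% Poisson interval 4.12 to 17.1). In serum/LIF+2i they were 3 and 5, 8 in all (3.45 to 15.8). Both are close to the floor of 3 counts (0.259 to 0.517 CPM). The fitted log2 changes were -7.27 and -7.91, and their SE from the F test (0.19 and 0.18) are too small to cover the counting error.

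Zfp42, also known as Rex1, encodes a zinc finger protein of the YY1 family and is a standard marker of naive ES cells. Its libraries in 2i/LIF were at 326.1 and 343.6 CPM at 0 h, 393.3 and 390.1 at 12 h, 307.4 and 300.3 at 24 h and 46.1 and 48.8 at 40 h. Those from serum/LIF+2i were at 442.8 and 423.9, 447.0 and 442.8, 264.8 and 261.2, and 44.3 and 43.3 CPM. In 2i/LIF both 12 h libraries lay above both 0 h libraries, whereas in serum/LIF+2i they overlapped. Zfp42 rose by 0.23 ± 0.04 (SE) on the log2 scale over 12 h in 2i/LIF (edgeR adjusted p 7.0e-07), and the serum/LIF+2i value was 0.04 ± 0.04 (adjusted p 0.426). It was then 0.14 below its 0 h level at 24 h in 2i/LIF (-0.14 ± 0.04, adjusted p 0.00192), and this call was lost without 2i/LIF replicate 2 at 0 h (-0.10, adjusted p 0.0813, range over the alternatives 0.00103 to 0.0813). It fell by 0.72 ± 0.04 by 24 h from serum/LIF+2i (edgeR adjusted p 6.2e-35). At 40 h 14.2% ± 0.569 and 10.1% ± 0.170 remained, the largest shares of the 8 genes.

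Tcl1 read 63.4 and 76.1 CPM at 0 h in 2i/LIF, 63.5 and 64.0 at 12 h, 28.5 and 26.6 at 24 h and 1.25 and 2.31 at 40 h. The values for serum/LIF+2i were 83.5 and 81.5, then 82.8 and 75.6, then 13.2 and 15.7, and 1.64 and 1.16 CPM. At 12 h the libraries overlapped with those at 0 h in both media, and the 0 h libraries of 2i/LIF were the least alike of any pair at 0 h among the 8 genes. The 12 h values of -0.14 (95% interval -0.30 to 0.02) and -0.06 (-0.21 to 0.08) were not called (edgeR adjusted p 0.166 and 0.489). Without 2i/LIF replicate 1 at 0 h the first was -0.26 with an adjusted p of 0.0242, and without replicate 2 it was 0.01 (range over the alternatives 0.0242 to 0.953). Tcl1 then fell by 1.21 ± 0.10 (SE) from 12 to 24 h in 2i/LIF and by 2.45 ± 0.10 in serum/LIF+2i (edgeR adjusted p 8.7e-22 and 4.8e-47).

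**Figure D2:**
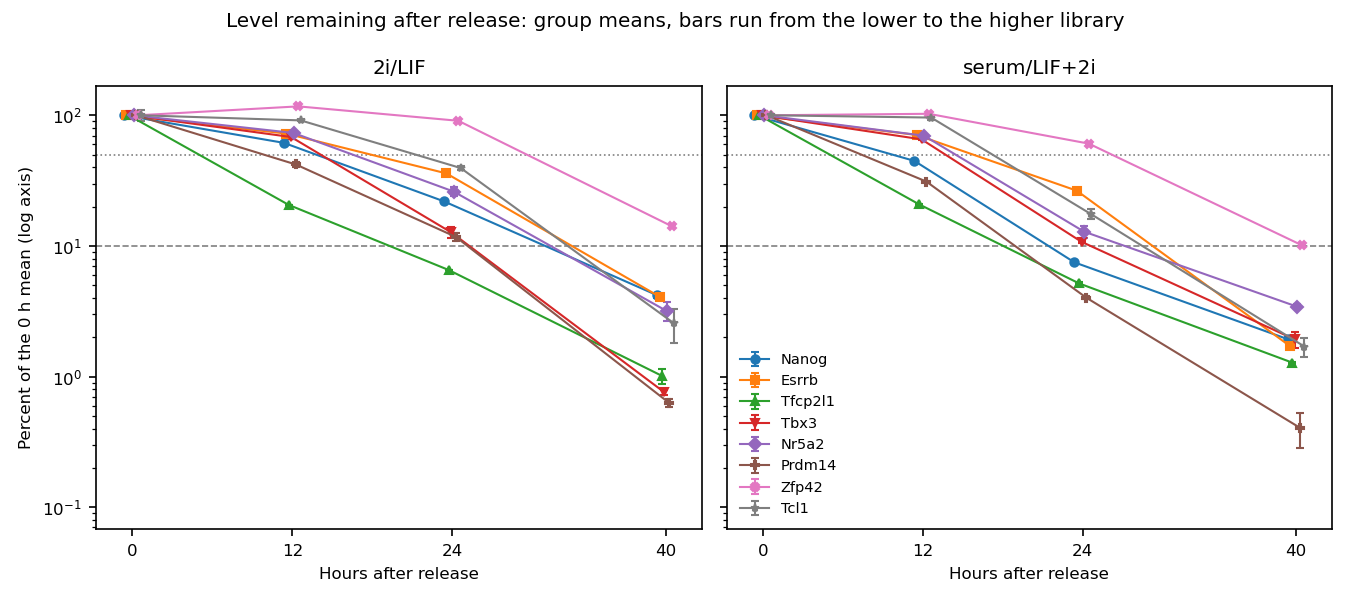
Share of the 0 h mean that remained at each time (percent, log axis) in 2i/LIF (left) and serum/LIF+2i (right), with bars from the lower to the higher library and lines at 50% and 10%. Bars at the later times take the 0 h mean as fixed. Tfcp2l1 leads at 12 h with 20.6% and 20.8% left, and Zfp42 stays on top at 40 h with 14.2% and 10.1%.

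To put the genes in order, the time at which each passed 50% and 10% of its 0 h level was read from a straight line between collection times on the log2 CPM scale. The range given is over all 16 choices of 1 library per group, and the crossings have no resolution finer than the collection times behind them. In 2i/LIF, 50% was passed first by Tfcp2l1 at 5.27 h (5.17 to 5.37), then by Prdm14 at 9.59 h (9.10 to 10.1), Tbx3 at 14.2 h, Nanog at 14.4 h, Nr5a2 at 16.4 h, Esrrb at 18.3 h, Tcl1 at 20.6 h (19.1 to 22.4) and Zfp42 at 29.1 h (28.8 to 29.5). Only Tbx3 and Nanog had overlapping ranges among neighbours in this order. In serum/LIF+2i the order was Tfcp2l1 at 5.30 h, Prdm14 at 7.12 h, Nanog at 10.35 h, Tbx3 at 13.8 h, Nr5a2 at 14.4 h, Esrrb at 16.2 h, Tcl1 at 16.6 h and Zfp42 at 25.7 h, and only Esrrb and Tcl1 overlapped. Tfcp2l1 was first, Prdm14 the second and Zfp42 last in each medium under all 13 settings tried (the one described, other scalings, a line on the CPM scale, no ribosomal RNA genes, and each library left out).

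The 10% mark was read in the same way. In 2i/LIF, Tfcp2l1 reached it at 19.6 h, Prdm14 at 24.9 h and Tbx3 at 25.4 h, the last pair with overlapping ranges. A group of 4 followed, Nr5a2 at 31.3 h, Nanog at 31.6 h, Tcl1 at 32.0 h and Esrrb at 33.4 h, in which all neighbours overlapped. In serum/LIF+2i, Tfcp2l1 and Prdm14 reached 10% at 18.3 and 18.6 h without overlap, followed by Nanog at 22.1 h, Tbx3 at 24.7 h, Nr5a2 at 27.05 h, Tcl1 at 27.8 h and Esrrb at 29.7 h, with overlapping ranges for Nr5a2 and Tcl1. Zfp42 passed 10% in neither medium within 40 h, though in serum/LIF+2i the lowest choice of libraries gave 39.8 h.

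**Figure D3:**
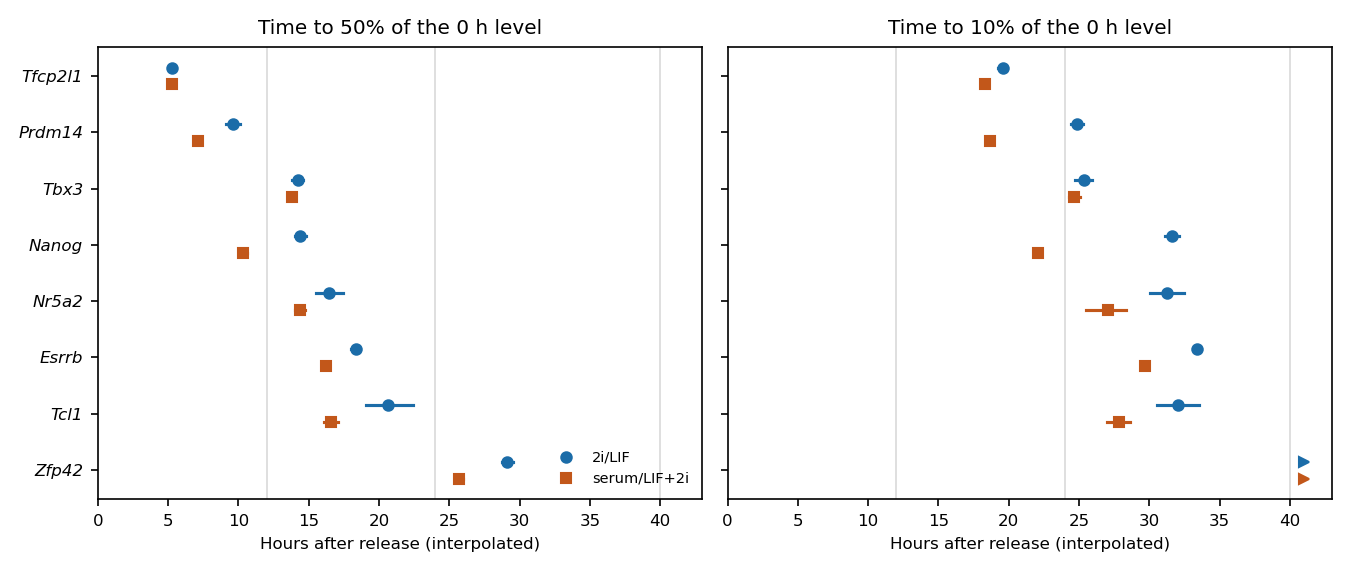
Interpolated hours after release at which each gene passed 50% (left) and 10% (right) of its 0 h level, with bars for the range over 16 choices of 1 library per group, and grey lines at 12, 24 and 40 h. Circles are 2i/LIF and squares serum/LIF+2i, and triangles at the edge stand for over 40 h. Most squares lie to the left of their circle, and for Tfcp2l1 and Tbx3 the symbols nearly coincide at 50%.

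The rate of loss changed over time in a way that set the genes apart. Tfcp2l1 lost 0.19 log2 units per hour over the opening 12 h in both media, and 34.4% and 36.0% of its log2 change to 40 h fell in this interval. The other 7 genes lost less per hour over this interval than between 12 and 24 h in both media. In 2i/LIF all 7 were fastest between 24 and 40 h, from -0.15 per hour for Nanog to -0.26 per hour for Prdm14. In serum/LIF+2i Nanog, Tbx3, Nr5a2 and Prdm14 were instead fastest between 12 and 24 h, at -0.22, -0.22, -0.20 and -0.25 per hour, and slowed to -0.12, -0.16, -0.12 and -0.21 per hour after 24 h. The Prdm14 rates after 24 h rest on 3 to 5 counts a library at 40 h, so its slowing is uncertain. Tcl1 in serum/LIF+2i was at -0.20 per hour between 12 and 24 h and -0.21 after 24 h, with overlapping ranges. Esrrb and Zfp42 were fastest after 24 h in both media, with -0.20 and -0.25 per hour for Esrrb and -0.17 and -0.16 per hour for Zfp42.

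The medium was compared next. At 0 h, 4 of the 8 genes were higher in serum/LIF+2i (14.6% of all genes were). Tbx3 was 0.39 ± 0.05 (SE) higher on the log2 scale, Zfp42 0.37 ± 0.04, Nanog 0.27 ± 0.04 and Tcl1 0.24 ± 0.08 (edgeR adjusted p 3.2e-11, 4.0e-14, 6.9e-10 and 0.0125), and the libraries did not overlap. The Tcl1 call was lost with DESeq2 (0.23, adjusted p 0.13), without 2i/LIF replicate 1 at 0 h (0.11, 0.438) and without serum/LIF+2i replicate 1 at 0 h (0.22, 0.0664), with a range over the alternatives of 0.00229 to 0.438. Values for the others were -0.01 (95% interval -0.08 to 0.06) for Esrrb, -0.04 (-0.11 to 0.03) for Tfcp2l1, -0.03 (-0.17 to 0.11) for Prdm14 and 0.12 (-0.004 to 0.25) for Nr5a2.

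At 12 h, 3 genes were higher (14.8% of all genes) and 2 lower (15.5%) in serum/LIF+2i. Tbx3, Tcl1 and Zfp42 were still above 2i/LIF, by 0.34, 0.31 and 0.18 on the log2 scale, while Nanog was at -0.19 ± 0.04 (SE) and Prdm14 at -0.46 ± 0.10 (edgeR adjusted p 3.6e-05 and 6.1e-05). At 24 h, 7 genes were lower in serum/LIF+2i (17.0% of all genes). The values ran from -1.57 ± 0.20 for Prdm14 and -1.28 ± 0.05 for Nanog, over -0.93 for Tcl1, -0.90 for Nr5a2, -0.45 for Esrrb and -0.38 for Tfcp2l1, to -0.21 ± 0.04 for Zfp42, and Tbx3 was at 0.16 (95% interval -0.05 to 0.36). At 40 h, 2 were higher (13.9%) and 2 lower (13.4%). Esrrb was at -1.27 ± 0.08 and Nanog at -0.85 ± 0.09, whereas Tbx3 was 1.74 ± 0.29 and Tfcp2l1 0.30 ± 0.08 higher (edgeR adjusted p 1.6e-28, 2.9e-14, 4.1e-07 and 0.0107). The Tfcp2l1 call was lost without 2i/LIF replicate 1 at 40 h (0.12, adjusted p 0.553) and without serum/LIF+2i replicate 2 at 40 h (0.27, 0.0794), with a range over the alternatives of 0.00121 to 0.553.

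Whether the loss itself differed was tested as the change since 0 h in serum/LIF+2i minus that in 2i/LIF. Over the opening 12 h, 3 of the 8 genes were called with a more negative change in serum/LIF+2i, against 4.40% of all genes. These were Nanog at -0.46 ± 0.05 (SE), Prdm14 at -0.43 ± 0.12 and Zfp42 at -0.19 ± 0.06 (edgeR adjusted p 1.5e-11, 0.0101 and 0.0152). DESeq2 called Nanog only, as did the fit without 2i/LIF replicate 1 at 12 h, and the Zfp42 call was also lost without replicate 1 of either medium at 0 h or replicate 2 of serum/LIF+2i at 12 h. Over the alternatives the adjusted p ran from 0.00496 to 0.145 for Prdm14 and from 0.00315 to 0.169 for Zfp42. Tfcp2l1, which had lost most by then, showed a difference of 0.01 (95% interval -0.09 to 0.12). Among all genes called in this comparison 52.2% were more positive, or 41.3% without ribosomal RNA genes.

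By 24 h, 7 of the 8 genes had a more negative change in serum/LIF+2i, against 11.0% of all genes. Nanog had the largest difference at -1.55 ± 0.06 (SE), followed by Prdm14 at -1.54 ± 0.21, Tcl1 at -1.16 ± 0.15 and Nr5a2 at -1.03 ± 0.13 (edgeR adjusted p 4.5e-43, 3.3e-09, 7.9e-11 and 1.8e-10). Of 14288 genes, 243 had a more negative difference than Nanog. Zfp42 was at -0.58 ± 0.06, Esrrb at -0.44 ± 0.05 and Tfcp2l1 at -0.34 ± 0.06, and Tbx3 was at -0.24 (95% interval -0.46 to -0.01, adjusted p 0.139). Most of this arose between 12 and 24 h, where again 7 of the 8 steps were more negative in serum/LIF+2i (9.87% of all genes), from -0.35 ± 0.06 for Tfcp2l1 to -1.24 ± 0.14 for Tcl1, with Tbx3 at -0.18 (-0.41 to 0.05).

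Between 24 and 40 h the direction turned for part of the set. The step was more positive in serum/LIF+2i, that is a smaller fall, for 4 genes (6.57% of all genes), Tbx3 by 1.58 ± 0.31 (SE), Nr5a2 by 1.15 ± 0.27, Tfcp2l1 by 0.68 ± 0.09 and Nanog by 0.43 ± 0.11 (edgeR adjusted p 5.5e-05, 0.00103, 2.4e-08 and 0.00426). It was more negative for 1 gene (5.63%), Esrrb, by -0.82 ± 0.09 (adjusted p 6.3e-13). The Nanog call was lost without 2i/LIF replicate 2 at 40 h (0.37, adjusted p 0.0522) and without serum/LIF+2i replicate 2 at 40 h (0.37, 0.082), with a range over the alternatives of 0.00391 to 0.082. Prdm14 at 0.91 (95% interval -0.56 to 2.37) and Tcl1 at 0.61 (-0.20 to 1.43), both with few counts at 40 h, and Zfp42 at 0.09 (-0.06 to 0.25) were not called.

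Over the whole 40 h, the change was more negative in serum/LIF+2i for 3 genes (12.8% of all genes) and more positive for 2 (14.8%). Esrrb at -1.26 ± 0.09 (SE), Nanog at -1.12 ± 0.10 and Zfp42 at -0.48 ± 0.08 fell further, and Tbx3 at 1.35 ± 0.30 and Tfcp2l1 at 0.34 ± 0.09 fell less (edgeR adjusted p 3.3e-25, 7.0e-19, 1.4e-07, 0.000164 and 0.00364). The Tfcp2l1 call was lost without 2i/LIF replicate 1 at 40 h (0.16, adjusted p 0.38, range over the alternatives 0.000397 to 0.38). In hours, the time to 50% in serum/LIF+2i minus that in 2i/LIF was -4.06 h for Nanog (10.35 against 14.4 h), -4.02 h for Tcl1, -3.41 h for Zfp42, -2.47 h for Prdm14, -2.11 h for Esrrb and -2.07 h for Nr5a2, with ranges that did not overlap. For Tfcp2l1 the times were 5.30 and 5.27 h and for Tbx3 13.8 and 14.2 h, with overlapping ranges. At 10% the difference was -9.53 h for Nanog, -6.22 h for Prdm14, -4.23 h for Nr5a2, -4.19 h for Tcl1, -3.72 h for Esrrb and -1.25 h for Tfcp2l1, without overlap. It was -0.69 h for Tbx3, with overlapping ranges, and Zfp42 did not reach this mark in either medium.

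**Figure D4:**
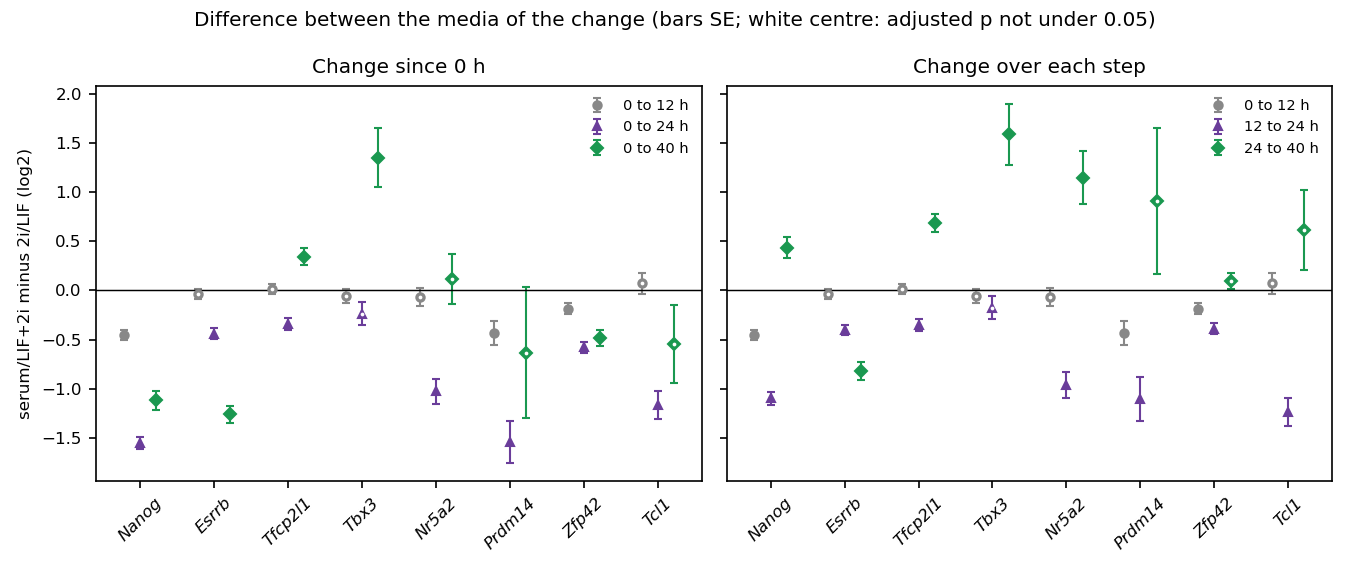
Difference between media (serum/LIF+2i minus 2i/LIF, log2) of the change since 0 h (left) and of the change over each step (right), with SE bars. Symbols with a white centre had an adjusted p of 0.05 or more. Values at 24 h lie below 0 for all 8 genes, and between 24 and 40 h Tbx3, Nr5a2, Tfcp2l1 and Nanog lie above 0 and Esrrb below.

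Partners of these factors did not all follow them. Nr0b1, which encodes Dax1, a binding partner and repressor of nuclear receptors including Nr5a2 and of Oct4, went from 118 ± 2.10 CPM (SD, n = 2) before release to 440 ± 2.15, 319 ± 4.64 and 26.3 ± 2.45 at the 3 later times in the 2i/LIF groups. The serum/LIF+2i groups had 78.5 ± 3.24, then 430 ± 20.7, 196 ± 10.3 and 9.41 ± 0.583 CPM. It rose by 1.90 and 2.45 on the log2 scale at 12 h and was 2.16 and 3.05 below 0 h at 40 h (-2.16 and -3.05, all called by edgeR). Ncoa3, a co-activator that works with Esrrb, rose by 0.55 and 0.67 at 12 h and ended at -0.84 and -1.02. Cbfa2t2, the co-repressor through which Prdm14 acts, fell by 12 h (-0.53 and -0.44) and ended at -1.33 and -1.22. Of the Akt kinases that Tcl1 binds, Akt1 rose by 0.50 and 0.51 by 40 h and Akt2 fell (-1.16 and -0.96).

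Most paralogs had few counts. Of 14 paralogs of the 8 genes, 6 passed the filter on low counts. At 40 h Prdm1 was lower in both media (-1.75 and -2.66), Esrra was higher in both (0.48 and 0.63) and Tfcp2 was higher in 2i/LIF (0.37). Ubp1, Yy1 and Yy2 were called in neither medium at 40 h. The neighbours of Tcl1 in its gene cluster, Tcl1b1 to Tcl1b5, each had at most 9 counts over both libraries of any group, with Tcl1b1 and Tcl1b5 at 0 throughout. Reads of such near copies can be split by counting, and Nanog has processed pseudogenes in the mouse genome, so these levels are uncertain to that extent.

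Other genes of naive pluripotency moved the same way but less evenly. Of 12 such genes (Klf2, Klf4, Klf5, Stat3, Gbx2, Dppa3, Dppa5a, Spic, Tdh, Fbxo15, Pecam1, Tet2), 11 were lower at 40 h in both media, against 34.7% and 35.3% of all genes, with median log2 fold changes over the 12 of -2.90 for 2i/LIF and -2.46 for serum/LIF+2i. The list was chosen with earlier results of these data known, so its share is not an independent test. Tdh, threonine dehydrogenase, was at -3.45 and -4.19, Klf4 at -7.04 and -6.95, and Fbxo15 at -2.13 and -2.64. The exception, named after its values were seen, was the homeobox gene Gbx2, which was higher by 1.91 in serum/LIF+2i and by 0.20 in 2i/LIF. Of 6 core factors, 3 were higher at 40 h in each medium (34.1% and 35.3% of all genes were) and 2 lower, a share near that of all genes (34.7% and 35.3%). Pou5f1, which encodes Oct4 and was named after its values were seen, was at -0.01 and -0.07 and not called (edgeR adjusted p 0.749 and 0.0831). Sox2 was lower at 40 h (-1.34 and -1.48), as was Sall4, also named after its values were seen (-0.49 and -0.43), and Utf1 (4.33 and 2.99), Dppa2 (0.98 and 1.64) and Dppa4 (1.03 and 0.81) were higher.

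Formative genes, which mark the epiblast after implantation, rose. All 12 (against 34.1% and 35.3% of all genes; Otx2, Pou3f1, Fgf5, Dnmt3a, Dnmt3b, Lef1, Zic2, Foxd3, Grhl2, Sall2, Etv4, Sox3) were higher at 40 h in both media, with median log2 fold changes of 4.09 and 3.33. This list too was chosen with earlier results of these data known, so its share is not an independent test. Dnmt3a and Dnmt3b, the de novo DNA methyltransferases, rose by 4.14 and 4.11 in 2i/LIF and by 4.26 and 3.43 in serum/LIF+2i. Of 10 regulators of exit, 2 were higher and 6 lower at 40 h in each medium, where 34.1% and 35.3% of all genes were higher and 34.7% and 35.3% lower. Tfe3, a transcription factor that drives Esrrb in ES cells when in the nucleus, rose by 0.81 and 0.98, and Zfp281, which promotes the passage to the primed state, rose by 0.85 and 0.75. Fnip1, a partner of folliculin in keeping Tfe3 out of the nucleus, fell (-1.15 and -0.44), and Rbpj, the nuclear effector of Notch, was at 0.03 in 2i/LIF and fell in serum/LIF+2i (-0.66). Tcf7l1, the repressor of Esrrb, which was named after its values were seen, fell too (-0.40 and -0.87).

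**Figure D5:**
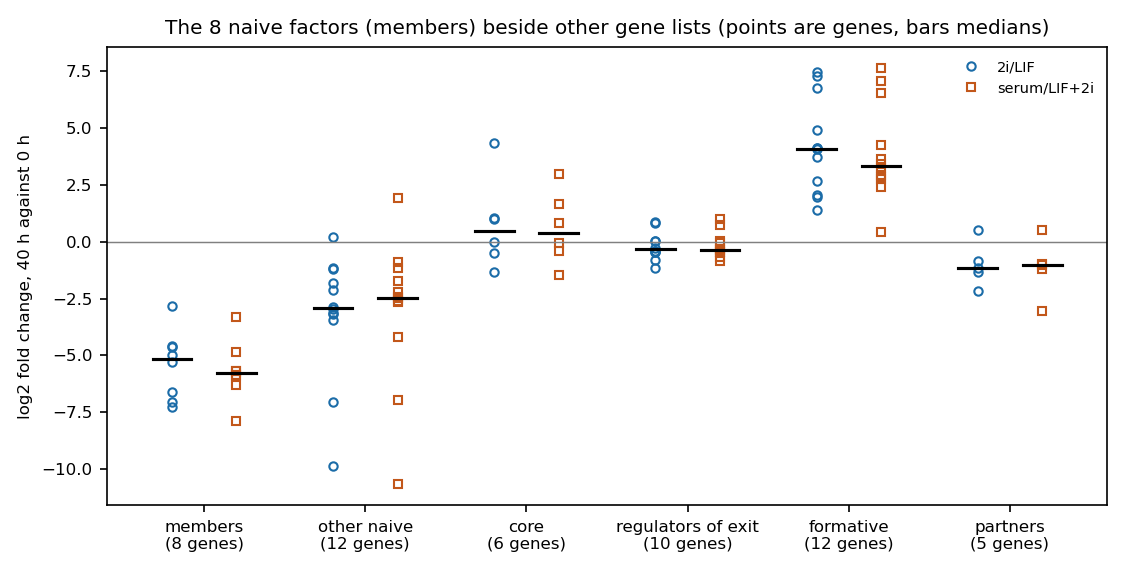
Log2 fold change at 40 h against 0 h for each gene of 6 lists, with circles for 2i/LIF, squares for serum/LIF+2i and bars for list medians. The 8 naive factors (members) all lie below -2.5, with medians of -5.14 and -5.77, and the 12 formative genes all lie above 0.

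Likeness of pattern was described by Pearson's r of log2 CPM over the 16 libraries, among 10761 genes whose mean reached 5 CPM, and these libraries share the same groups and times. Between pairs of the 8 genes r ran from 0.843 (Tfcp2l1 and Zfp42) to 0.995 (Nanog and Prdm14), with a median of 0.961 over 28 pairs. The genes most like Nanog were Tdh (0.996), Lrrc34 (0.994) and Nid1 (0.993), and Nid1 was also the most like Prdm14 (0.996). Lap3 was the most like Tfcp2l1 (0.998), with 627.5, 370, 259 and 152 CPM at the 4 times in 2i/LIF. Amt was the most like Esrrb (0.997), Klf5 the most like Tbx3 (0.991), Mras the most like Nr5a2 (0.993) and Mme the most like Tcl1 (0.994). A high r does not mean an equal fall. In 2i/LIF, Amt went from 142 CPM at 0 h to 54.2 CPM at 40 h, whereas Esrrb went from 916 to 37.4 CPM. After a gene without a symbol in the table (0.995), Sox2 (0.992) was the most like Zfp42, with 358, 404, 324 and 142 CPM at the 4 times in 2i/LIF.

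The 8 genes lie on 5 chromosomes of the mouse genome (GRCm38), Tfcp2l1, Nr5a2 and Prdm14 on chromosome 1, Tbx3 on 5, Nanog on 6, Zfp42 on 8, and Esrrb and Tcl1 on 12. In RefSeq, Tbx3 overlaps Tbx3os1 by 975 bases, Tfcp2l1 overlaps LOC115487679 by 130 bases and Esrrb overlaps Gm40483 by 56 bases. None of these neighbours has counts of its own in the table, and whether counting used the strand is not given in the sources used here. Reads from the shared bases therefore cannot be told apart from those of the 3 genes. The overlaps are of whole gene spans, and whether the shared bases lie in exons was not checked.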

How the data were processed

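Poly(A) RNA libraries (TruSeq Stranded mRNA, per the labels' protocols) of 16 mouse ES cell samples were analysed. The authors deposited whole-number read counts for 27179 genes, without normalization. Per the submitters' processing notes, fastp, STAR, featureCounts and the mm10 build were used, and versions, strand setting and annotation are not given in the sources used here. Genes without a symbol (1049) held 0.407% of the counts.

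The counts were fitted with edgeR 4.0.16 in R 4.3.3 over all 8 groups (filterByExpr with a minimum count of 10 and a minimum total of 15, TMM scaling, robust quasi-likelihood F tests with 8 residual degrees of freedom), for 19 comparisons, each adjusted by Benjamini-Hochberg over 14288 genes at 0.05. The common coefficient of biological variation came to 3.19%. CPM (counts scaled to library size) was computed with TMM library sizes, and log2 CPM with a prior count of 2. TPM was computed from counts divided by gene length and scaled to the same sum in each library, without TMM. Poisson intervals (95%) and the floor of 3 counts cover counting error only. The SE of a log2 change is its absolute value divided by the square root of F, and the 95% intervals of log2 changes are built from it. These SE run too small for large falls that end at few counts. The interpolated times have no test. Alternatives were DESeq2 1.42.0, limma-voom 3.58.1, other scalings and filters, fits within a medium, no ribosomal RNA genes, a replicate block and leaving out each library.

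The 8 genes and all lists were chosen with earlier results of these data known. The naming rule allowed up to 4 genes of each list with the smallest adjusted p at 40 h and all partners and paralogs. For likeness it allowed the 3 genes with the highest r per member. Not all paralogs and like genes that the rule allowed are named above.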

Additional observations from a re-analysis of the deposited data

Results flagged for a closer look

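The results below are differences between media in the change of a gene (serum/LIF+2i minus 2i/LIF, log2) with an adjusted p under 0.05 (edgeR quasi-likelihood test of the difference itself). From 0 to 12 h these were Nanog at -0.46, Prdm14 at -0.43 and Zfp42 at -0.19. From 0 to 24 h they were Nanog at -1.55, Prdm14 at -1.54, Tcl1 at -1.16, Nr5a2 at -1.03, Zfp42 at -0.58, Esrrb at -0.44 and Tfcp2l1 at -0.34. From 0 to 40 h they were Esrrb at -1.26, Nanog at -1.12, Zfp42 at -0.48, Tbx3 at 1.35 and Tfcp2l1 at 0.34. For the step from 12 to 24 h they were Tcl1 at -1.24, Prdm14 at -1.11, Nanog at -1.10, Nr5a2 at -0.96, Esrrb at -0.40, Zfp42 at -0.39 and Tfcp2l1 at -0.35. For the step from 24 to 40 h they were Tbx3 at 1.58, Nr5a2 at 1.15, Tfcp2l1 at 0.68, Nanog at 0.43 and Esrrb at -0.82. The comparisons from 0 h share the 0 h libraries, and the steps share those at 24 h. Some of these calls were lost under some alternatives, as described above. They were Prdm14 and Zfp42 from 0 to 12 h, Tfcp2l1 from 0 to 40 h and Nanog from 24 to 40 h.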

How the results depend on the processing

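Of 1296 values for the 8 genes under alternatives other than leaving out a library, 1289 kept their direction and side of the threshold, 3 lost their call and 4 turned sign. Of 2432 values with a library left out, 2410 kept both, 13 lost a call, 1 gained one and 8 turned sign. None of those that turned sign was called, and the cause was not tested.

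With DESeq2, 1 of the 8 genes was called for the difference from 0 to 12 h in place of 3. Without 1 library the count for that difference was 1 to 3. It was 7 to 8 at 12 and at 24 h in 2i/LIF, 4 to 5 for the differences from 0 to 40 h and 24 to 40 h, and 3 to 4 between media at 0 and at 40 h. With a line on the CPM scale, the median times to 50% and 10% were 16.9 and 35.0 h in 2i/LIF and 15.8 and 27.1 h in serum/LIF+2i, against 15.4, 31.4, 14.1 and 25.9 h. Without 1 library the medians were 15.1 to 15.8, 30.9 to 31.7, 14.0 to 14.2 and 25.2 to 26.1 h.

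Esrrb between media at 0 h became 0.008 with library size only and 0.008 without ribosomal RNA genes, and the Tfcp2l1 difference from 0 to 12 h became -0.003 and -0.016. With libraries left out, that Tfcp2l1 difference ran from -0.020 to 0.055, that of Esrrb from -0.072 to 0.010 and that of Tcl1 from -0.068 to 0.199. Tcl1 at 12 h ran from -0.257 to 0.010 in 2i/LIF and from -0.116 to 0.007 in serum/LIF+2i, Tcl1 between media at 40 h from -0.703 to 0.171, and the Nr5a2 difference from 0 to 40 h from -0.114 to 0.369. Tfcp2l1 was also at -0.004 without serum/LIF+2i replicate 2 at 12 h.

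Over all genes, DESeq2 called 3115, 2668, 2729 and 2010 between media at 0, 12, 24 and 40 h, where edgeR called 4710, 4334, 4439 and 3897. For the differences from 0 to 12, 24 and 40 h and the steps to 24 and 40 h it called 574, 1789, 2419, 1240 and 783, where edgeR called 1315, 2966, 3940, 2440 and 1743. Without 2i/LIF replicate 1 at 40 h, 2240 were called between media at 40 h. No shared effect of the replicate numbers was seen, as all 28 correlations of same-numbered deviations lay between -0.023 and 0.0331. Such correlations cannot show whether same-numbered samples shared a culture or day. The replicate block changed no call of the 8 genes and gave 1356 calls in place of 1315 for the difference from 0 to 12 h. Counts limit Prdm14, Tbx3, Tcl1 and Nr5a2 at 40 h, with 3 to 63 counts a library.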
